A study of Mus musculus with 8 samples.

Results

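Transcripts of 10 genes that mark monocytes and their close relatives were followed in bone marrow cells sorted as B cells, namely Ly6c2, Ccr2, Csf1r, Cx3cr1, F13a1, Lyz2, Ms4a6c, Cd14, Fcgr1 and Itgam. They were chosen by symbol as known genes of the monocyte lineage, with earlier results of these data known. All 10 were found among the 46983 genes of the count table. The libraries came from B cells sorted magnetically from the marrow of wild-type (WT) mice and kept under hypoxia, which all groups share. Estrogen had been given to the cells of 4 libraries, the Estrogen group, and vehicle to those of the other 4, the Vehicle group. The question was what estrogen does to marrow B cells at low oxygen, and the monocyte genes report on transcripts of another lineage within the sorted fraction. After a magnetic sort, cells of other lineages can be part of the material.

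Monocytes arise in the marrow from myeloid progenitors under the transcription factors PU.1 and IRF8 and leave it for the blood. Classical monocytes carry much Ly6C and CCR2 and enter inflamed tissue, whereas patrolling monocytes carry little Ly6C and much CX3CR1 and survey the vessel wall. In bone marrow, cells of this lineage that receive CSF1 can also become macrophages and osteoclasts. None of the 10 genes belongs to monocytes alone. Lyz2 and Itgam are strong in neutrophils, Ly6c2 is also carried by plasmacytoid dendritic cells, plasma cells and some T cells, and Csf1r and Cd14 are used by macrophages.

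The libraries held 30181834 to 34236361 reads in Estrogen and 32484430 to 39088597 reads in Vehicle. Levels are given as CPM, a gene's reads scaled to 1000000 reads of its library by TMM, and a count of 3 reads, taken as the detection floor, equals 0.0780 to 0.102 CPM, which covers counting error only. Of 15175 genes abundant enough for a test, edgeR's quasi-likelihood test with Benjamini-Hochberg adjustment called 0 higher and 0 lower in Estrogen, and 535 had an unadjusted p under 0.05. Sex-linked genes set Vehicle 3 apart, with 85 reads of Xist against 15618 to 48066 in the other 7 libraries. The same library had between 801 and 3540 reads of each of 4 Y-linked genes, of which no other library held more than 20. The labels give no sex, so results are also given without that library where it moves them.

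The 10 genes were present in every library. The lowest count of any of them was 53 reads (Cx3cr1 in Estrogen 4), far above the floor. The summed level of the 10 genes was 1447 to 2782 CPM in Estrogen and 1416 to 2351 CPM in Vehicle. Lyz2 alone made up 69 to 81% of the reads of the 10 genes in Estrogen and 61 to 73% in Vehicle. The 15 B lineage markers summed to 8359 to 14016 CPM in Estrogen and 10137 to 15982 CPM in Vehicle. Divided by exonic length, Cd79a, a chain of the B cell receptor complex, was at 1268 CPM per kb in Estrogen and 1718 CPM per kb in Vehicle (means, n = 4 each). The 10 genes ran from Cx3cr1, at 0.845 CPM per kb in Estrogen and 0.870 in Vehicle, to Lyz2, at 1149 in Estrogen and 965 in Vehicle. Csf1r was at 13.4 CPM per kb in Estrogen and 11.2 CPM per kb in Vehicle. In bulk RNA, fewer cells of a type and less RNA per cell cannot be told apart, and nothing here says whether these transcripts came from monocytes, from other myeloid cells or from the B cells.

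No difference in a monocyte gene between Estrogen and Vehicle passed the test, and in every gene the libraries of the groups overlapped. All 10 genes passed the filter on low counts, and 0 passed edgeR's test at an adjusted p of 0.05, with 0% of the 15175 genes tested called higher and 0% called lower. DESeq2 and limma-voom also called 0 of the 10. At an unadjusted p under 0.05 each of these tools picked 1 of the 10, which was Ly6c2 on the lower side. At that limit edgeR picked 3.53% of all genes tested, 2.27% higher and 1.26% lower. The fitted log2 difference, Estrogen minus Vehicle as in every difference below, was above 0 for 4 genes and below 0 for 6, against 48.9% and 51.1% of all genes tested. Its median over the 10 genes was -0.06 and over all genes -0.01. For none of the 10 genes did the 4 Estrogen libraries lie entirely above or below the 4 Vehicle libraries, which was so for 1.67% of all genes tested.

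**Figure D1:**
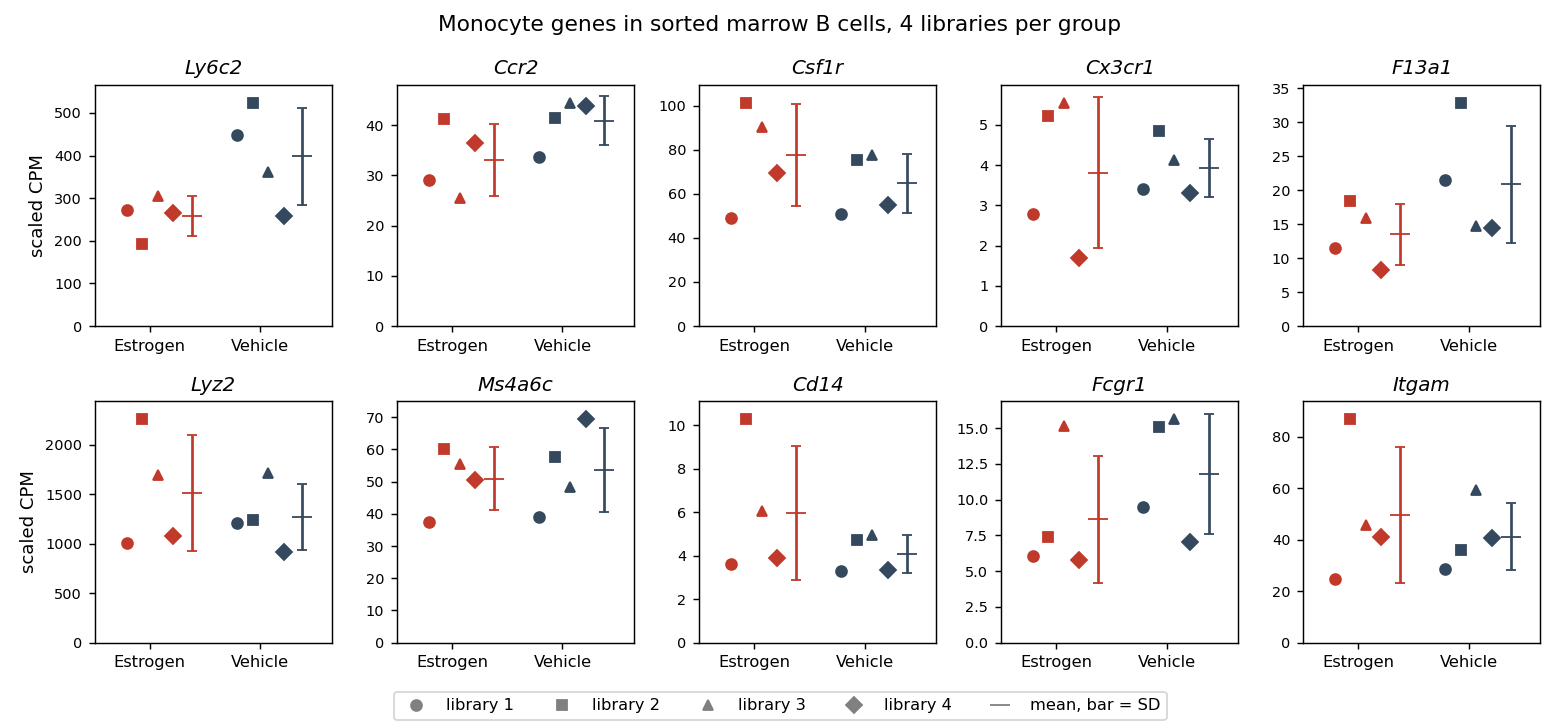
Scaled CPM of the 10 monocyte genes in each library, Estrogen on the left and Vehicle on the right of every panel, on linear axes that start at 0. Each point is 1 library, with a symbol for its number, and the bar beside the points is the mean with its SD (n = 4). The groups overlap in all 10 panels, and Ly6c2 has 3 of 4 Vehicle libraries above every Estrogen library.

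Ly6c2 (ENSMUSG00000022584, chromosome 15, 75108158 to 75111970, minus strand, GRCm38) encodes the GPI-anchored surface protein by which classical monocytes are gated. It was at 272, 193, 305 and 265 CPM in Estrogen 1 to 4, against 448, 524, 362 and 259 CPM in Vehicle 1 to 4. Estrogen 2 was the lowest library and Vehicle 2 the highest, and only Vehicle 4 reached down into the Estrogen range. The means were 259 ± 47.2 CPM in Estrogen and 398 ± 114 CPM in Vehicle (SD, n = 4 each). The fitted log2 difference was -0.62 ± 0.22 (SE), with a 95% interval from -1.11 to -0.13. Its unadjusted p was 0.0178 and its edgeR adjusted p 0.860, so the difference did not pass over the whole table. Without Vehicle 2 the difference was -0.45 and its unadjusted p was no longer under 0.05. Without Vehicle 3 it was -0.65, and without Vehicle 4 it was -0.78 and the groups no longer overlapped.

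The neighbour Ly6c1 (chromosome 15, 75044018 to 75048830, minus strand) encodes an almost identical protein, so the reads of Ly6c2 could in part belong to Ly6c1. Over the longest open reading frame of the first annotated transcript, 396 bases in each gene, 9 bases differ and 97.7% are identical. The first 150 of those bases are shown to make clear how few positions tell the genes apart, with the 6 bases that differ in capitals.
Ly6c2 bases 1 to 150: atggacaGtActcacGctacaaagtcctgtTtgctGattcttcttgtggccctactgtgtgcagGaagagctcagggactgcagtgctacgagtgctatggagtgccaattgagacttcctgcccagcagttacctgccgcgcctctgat
Ly6c1 bases 1 to 150: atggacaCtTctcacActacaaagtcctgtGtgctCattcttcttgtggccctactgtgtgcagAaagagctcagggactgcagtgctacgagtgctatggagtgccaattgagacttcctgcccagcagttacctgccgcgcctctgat
Of the 50-base windows of the annotated Ly6c2 transcripts, 13.9% also occur in Ly6c1 transcripts. Ly6c1, which endothelial cells and some lymphocytes carry, was counted at 0.170 to 0.406 CPM in Estrogen and 0.281 to 0.512 CPM in Vehicle, close to the floor. Reads of Ly6c1 that had been counted as Ly6c2 cannot be told apart here.

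Ccr2 encodes the receptor for the chemokine CCL2, through which classical monocytes leave the marrow. It lies on chromosome 9, 124101950 to 124113557, plus strand. Ccr2 was at 29.0, 41.3, 25.5 and 36.5 CPM in Estrogen, against 33.8, 41.5, 44.5 and 43.9 CPM in Vehicle. Estrogen 1 and Estrogen 3 were the lowest libraries and Estrogen 2 stood level with Vehicle 2, so the groups overlapped. Ccr2 differed by -0.31 ± 0.16 on the log2 scale (95% interval -0.67 to 0.06, edgeR adjusted p = 0.860). Without Estrogen 3 it differed by -0.20 and without Vehicle 3 by -0.25. Of its ligands in the mouse, Ccl2 was at 1.33 to 2.58 CPM in Estrogen and 1.56 to 4.91 CPM in Vehicle (log2 difference -0.57 ± 0.37). Ccl7 was at 0.261 to 0.761 CPM in Estrogen and 0.420 to 2.44 CPM in Vehicle (-1.32 ± 0.61), and neither passed the test (edgeR adjusted p = 0.860 for both).

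Csf1r (chromosome 18, 61100598 to 61132149, plus strand) encodes the receptor tyrosine kinase for CSF1 and IL-34, on which monocytes, macrophages and osteoclast precursors depend. It was at 48.9, 101, 90.3 and 69.4 CPM in Estrogen and at 51.0, 75.3, 77.4 and 55.1 CPM in Vehicle. Estrogen 2 and 3 were the highest libraries, yet Estrogen 1 was the lowest of all 8. For Csf1r the fitted log2 difference was 0.26 ± 0.23 (95% interval -0.25 to 0.77, edgeR adjusted p = 0.860). That of Csf1r was 0.43 without Estrogen 1, 0.11 without Estrogen 2 and 0.37 without Vehicle 3. Csf1, the gene of its main ligand, was at 16.2 to 27.99 CPM in Estrogen and 20.6 to 35.3 CPM in Vehicle (log2 difference -0.21 ± 0.22). Il34, the other ligand, was at 0.0564 to 0.232 CPM in Estrogen and 0.0300 to 0.156 CPM in Vehicle, at or near the floor, and did not pass the filter. The opposite-strand gene Hmgxb3 shares 14.3% of the 50-base windows of Csf1r and was counted with 12747 reads over all libraries, against 19503 for Csf1r.

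Cx3cr1 (chromosome 9, 119901616 to 120069879, minus strand), the fractalkine receptor of patrolling monocytes, was the lowest of the 10 genes. It was at 2.79, 5.22, 5.55 and 1.68 CPM in Estrogen, against 3.40, 4.84, 4.14 and 3.30 CPM in Vehicle. The highest and the lowest library were both in Estrogen, and all 4 Vehicle libraries lay between them. Cx3cr1 had a log2 difference of -0.04 ± 0.36 (95% interval -0.84 to 0.76, edgeR adjusted p = 0.980), and its sign changed with the library that was left out (0.08 without Estrogen 1, 0.21 without Estrogen 4, 0.09 without Vehicle 2 and 0.0004 without Vehicle 3). Cx3cl1, the gene of fractalkine, was at 0.508 to 0.850 CPM in Estrogen and 0.422 to 0.910 CPM in Vehicle.

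The remaining receptors recognize microbes and antibodies. Cd14 (chromosome 18, 36725067 to 36726798, minus strand) encodes the co-receptor that hands lipopolysaccharide to TLR4 and MD-2. It was at 3.64, 10.3, 6.04 and 3.90 CPM in Estrogen and at 3.28, 4.71, 4.95 and 3.36 CPM in Vehicle. Estrogen 2 held more than any other library and the other 3 Estrogen libraries reached no higher than 6.04 CPM. The log2 difference of Cd14 was 0.55 ± 0.34 (95% interval -0.21 to 1.31, edgeR adjusted p = 0.860). That of Cd14 was 0.16 without Estrogen 2 and 0.67 without Vehicle 3. Its partners Tlr4 (log2 difference 0.17 ± 0.18) and Ly96, the gene of MD-2 (0.05 ± 0.19) did not pass either, with Tlr4 at 9.15 to 14.3 CPM in Estrogen and 8.84 to 12.8 CPM in Vehicle.

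Fcgr1 (chromosome 3, 96282909 to 96293969, minus strand) encodes CD64, the high-affinity receptor for IgG, an interferon-gamma target in myeloid cells. It was at 6.09, 7.39, 15.2 and 5.80 CPM in Estrogen, against 9.48, 15.1, 15.6 and 7.01 CPM in Vehicle. Estrogen 3 stood well above the other 3 Estrogen libraries and next to the 2 highest Vehicle libraries. The log2 difference was -0.45 ± 0.36 (95% interval -1.26 to 0.36, edgeR adjusted p = 0.860), and it was -0.87 without Estrogen 3, -0.30 without Estrogen 4 and -0.28 without Vehicle 3. Fcer1g, the signalling chain with which CD64 pairs, was at 90.8 to 154 CPM in Estrogen and 90.0 to 129 CPM in Vehicle (log2 difference 0.18 ± 0.17).

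Itgam (chromosome 7, 128062640 to 128118491, plus strand) encodes CD11b, the alpha chain of the integrin Mac-1 of monocytes and neutrophils. It was at 24.7, 86.7, 45.7 and 40.9 CPM in Estrogen and at 28.6, 36.1, 59.2 and 40.5 CPM in Vehicle. Estrogen 2 was highest and Estrogen 1 lowest, so the Vehicle libraries fell inside the Estrogen range. Itgam had a log2 difference of 0.27 ± 0.35 (95% interval -0.52 to 1.06, edgeR adjusted p = 0.871), and it was 0.49 without Estrogen 1, -0.14 without Estrogen 2, 0.15 without Vehicle 1 and 0.51 without Vehicle 3. Itgb2, the beta chain of Mac-1, was at 268 to 450 CPM in Estrogen and 245 to 345 CPM in Vehicle (log2 difference 0.25 ± 0.17). Of the windows of Itgam, 66.3% also occur in the same-strand model Gm49368, which was counted with 18 reads over all libraries, against 12459 for Itgam.

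Lyz2 (chromosome 10, 117277331 to 117282321, minus strand) encodes lysozyme M, the bacterial cell wall enzyme of monocytes, macrophages and neutrophils. It was the most abundant of the 10 genes, at 1010.2, 2258, 1700.1 and 1078 CPM in Estrogen, against 1205, 1235, 1719 and 921 CPM in Vehicle. Estrogen 2 was the highest library, and Vehicle 3 and Estrogen 3 came next and lay close together. The log2 difference was 0.25 ± 0.28 (95% interval -0.38 to 0.88, edgeR adjusted p = 0.864), and it was 0.40 without Estrogen 1, -0.01 without Estrogen 2, 0.39 without Estrogen 4, 0.45 without Vehicle 3 and 0.13 without Vehicle 4. Its neighbour Lyz1, the Paneth cell lysozyme, shares 15.4% of the windows of Lyz2 and was at 0.602 to 1.28 CPM in Estrogen and 0.903 to 1.77 CPM in Vehicle.

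F13a1 (chromosome 13, 36867178 to 37050244, minus strand) encodes the A subunit of coagulation factor XIII, a transglutaminase that monocytes store. It was at 11.5, 18.4, 15.9 and 8.27 CPM in Estrogen and at 21.5, 32.9, 14.8 and 14.4 CPM in Vehicle. Vehicle 2 held the most and Estrogen 4 the least, while Estrogen 2 and 3 lay above Vehicle 3 and 4. The fitted log2 difference of F13a1 was -0.63 ± 0.32 (95% interval -1.34 to 0.08, edgeR adjusted p = 0.860). It was -0.31 without Vehicle 2 and -0.75 without Vehicle 3.

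Ms4a6c (chromosome 19, 11469366 to 11482192, plus strand) encodes a membrane-spanning protein of the MS4A family that is strong in monocytes. It was at 37.4, 60.1, 55.6 and 50.6 CPM in Estrogen, against 38.99, 57.7, 48.5 and 69.4 CPM in Vehicle. Estrogen 1 and Vehicle 1 were lowest and Vehicle 4 highest. The log2 difference was -0.07 ± 0.19 (95% interval -0.51 to 0.36, edgeR adjusted p = 0.928). It was 0.05 without Estrogen 1, -0.105 without Vehicle 3 and 0.08 without Vehicle 4. The opposite-strand transcript BE692007 shares 49.6% of the windows of Ms4a6c and was counted with 37635 reads over all libraries, against 14289 for Ms4a6c. Since the strand setting of the counting is not given in the sources used here, reads of these genes cannot be told apart.

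**Figure D2:**
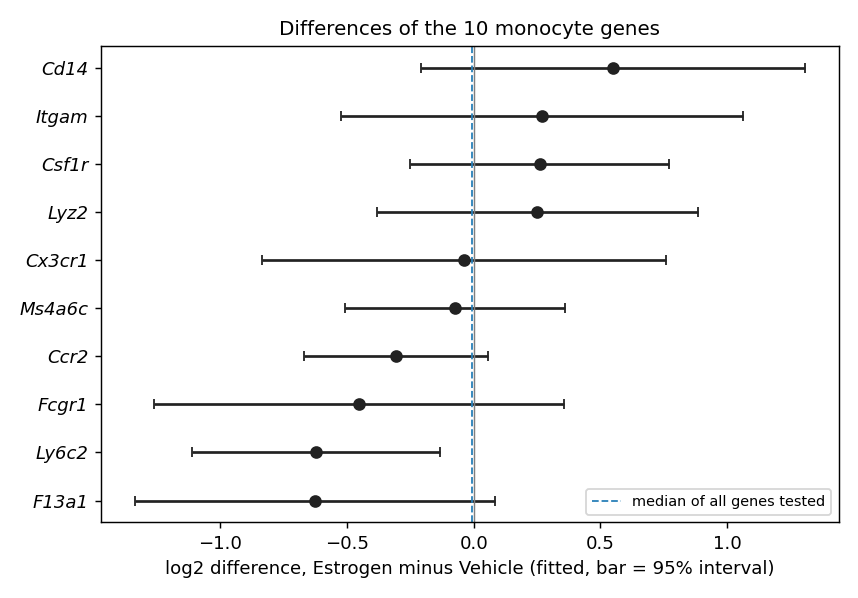
Fitted log2 difference, Estrogen minus Vehicle, of each of the 10 genes, with its 95% interval as a bar, ordered by size. The dashed line is the median of all genes tested (-0.01). Only the interval of Ly6c2, from -1.11 to -0.13, leaves out 0.

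Per length, the order of the 10 genes was steep. Lyz2 averaged 1057 CPM per kb over the 8 libraries (range 700 to 1716) and Ly6c2 120 (70.4 to 191). Ms4a6c followed at 25.5 CPM per kb (18.3 to 33.8), Csf1r at 12.3 (8.46 to 17.5) and Itgam at 9.02 (4.91 to 17.3). The ranges of Lyz2, Ly6c2 and Ms4a6c did not overlap with those of their next neighbours, whereas from Csf1r downward each range overlapped with the next. Ccr2 was at 5.47 CPM per kb, Fcgr1 at 3.94, Cd14 at 2.90, F13a1 at 2.55 and Cx3cr1 at 0.858. Within single libraries Csf1r exceeded Itgam in 8 of 8, and Itgam exceeded Ccr2 in 8 of 8. Fcgr1 exceeded Cd14 in 6 of 8 and Cd14 exceeded F13a1 in 5 of 8.

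The libraries of a group differed widely. The coefficient of variation of the 10 genes was 18.2% (Ly6c2) to 53.3% (Itgam) in Estrogen and 12.1% (Ccr2) to 41.4% (F13a1) in Vehicle. Estrogen 2 was the highest of the 8 libraries for 4 genes, Csf1r, Lyz2, Cd14 and Itgam, and the lowest for Ly6c2. Estrogen 1 lay above the median of the 8 libraries for 0 of the 10 genes and Estrogen 4 for 1, whereas Estrogen 2 did so for 8 and Estrogen 3 for 9. In Vehicle the number was 3 for Vehicle 1, 9 for Vehicle 2, 8 for Vehicle 3 and 2 for Vehicle 4.

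The 10 genes did not move as a block over the 8 libraries. Of 45 pairs, 40 correlated positively and 5 negatively, with a median Pearson's r of 0.34, and 2 passed an exact permutation test adjusted over the 45 pairs. Csf1r and Cd14 had r = 0.90 (exact permutation p = 0.000223, adjusted p = 0.0100) and Spearman's rho = 0.93 (exact permutation p = 0.00223, adjusted p = 0.100). Their r was 0.93 without the 2 libraries farthest from the median of Csf1r, 0.91 without Vehicle 3 and 0.89 on deviations from the group means. Lyz2 and Cd14 had r = 0.91 (exact permutation p = 0.00159, adjusted p = 0.0357) and rho = 0.83 (exact permutation p = 0.0154, adjusted p = 0.173), with r = 0.86 without the 2 farthest libraries, 0.95 without Vehicle 3 and 0.92 on deviations. By rank, 0 of the 45 pairs passed after adjustment.

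Ly6c2 was in neither of the 2 pairs that passed, which was also so of Ccr2, Cx3cr1, F13a1, Ms4a6c, Fcgr1 and Itgam. The r of Ly6c2 was -0.22 with Lyz2, -0.25 with Csf1r, -0.29 with Ms4a6c, -0.43 with Cd14 and -0.48 with Itgam, which are the 5 negative pairs. With Fcgr1 it was 0.64, with F13a1 0.61, with Cx3cr1 0.15 and with Ccr2 0.03, and none of these 9 values passed (exact permutation adjusted p from 0.362 to 0.986). The value with F13a1 rested on Vehicle 1 and Vehicle 2, since without them r was -0.18. The ratio of Ly6c2 reads to Csf1r reads, not corrected for length, was 5.57, 1.90, 3.37 and 3.82 in Estrogen 1 to 4, against 8.80, 6.96, 4.68 and 4.69 in Vehicle 1 to 4. Estrogen 1 lay above Vehicle 3 and 4 in that ratio, so the groups overlapped there too.

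Each of the 10 genes was also set against the mean log2 CPM of 5 marker lists, for neutrophils, macrophages, plasmacytoid dendritic cells, the B lineage and the type I interferon response. Of these 50 relations, 3 passed an exact permutation test on r adjusted over the 50, and 0 passed on rank. The lists were chosen with earlier results of these data known, and the other lists were not set against the 10 genes. The adjustment covers these 50 relations only, so a pass is a description of likeness. Lyz2 had r = 0.97 with the mean of 16 neutrophil genes (exact permutation p = 0.000298, adjusted p = 0.0149; rho = 0.90, exact permutation p = 0.00456, adjusted p = 0.114). It was 0.95 without the 2 farthest libraries, Estrogen 2 and Vehicle 3, 0.98 without Vehicle 3 alone and 0.98 on deviations from the group means. Of 12947 genes outside the list that averaged 1 CPM or more, 0.162% had an r as high. Cd14 had r = 0.87 with the same mean (exact permutation p = 0.00280, adjusted p = 0.0467; rho = 0.74, exact permutation p = 0.0458, adjusted p = 0.255), and 1.26% of genes had an r as high. Its r was 0.78 without the 2 farthest libraries, Estrogen 2 and Estrogen 3, and 0.96 without Vehicle 3. Itgam had r = 0.85 (exact permutation p = 0.00471, adjusted p = 0.0589) and rho = 0.69 (exact permutation p = 0.0694, adjusted p = 0.289) with that mean, and r = 0.69 without Estrogen 1 and Estrogen 2. Csf1r had r = 0.83 (exact permutation p = 0.0155, adjusted p = 0.143) and rho = 0.81 (exact permutation p = 0.0218, adjusted p = 0.218), and r = 0.83 without Estrogen 1 and Vehicle 1. Neither passed after adjustment. Cx3cr1 had r = 0.74 with the neutrophil mean and -0.74 with the plasmacytoid dendritic cell mean (exact permutation adjusted p = 0.198 and 0.202). With the B lineage mean, r was -0.80 for Itgam and 0.77 for Ly6c2 (exact permutation adjusted p = 0.143 and 0.191). None of these passed either.

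All 16 neutrophil genes were above the filter. S100a9 and S100a8, the calprotectin subunits, and the granule gene Ngp were the most abundant, with S100a9 at 1426, 3134, 2747 and 1207 CPM in Estrogen and 1604, 1417, 3172 and 1155 CPM in Vehicle. Estrogen 2, Estrogen 3 and Vehicle 3 were the 3 high libraries, as for Lyz2. The list summed to 4151 to 11329 CPM in Estrogen and 3990 to 10334 CPM in Vehicle, 11 of its genes had a fitted difference above 0 and 5 below, its median was 0.23, and 0 were called. The part of neutrophil RNA in the counts of the 10 genes was not tested.

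Ly6c2 had r = 0.94 with the mean of 28 interferon response genes (exact permutation p = 0.000744, adjusted p = 0.0186; rho = 0.95, exact permutation p = 0.00114, adjusted p = 0.0570). Without its 2 farthest libraries, Vehicle 1 and Vehicle 2, r was 0.88, without Vehicle 3 it was 0.95, and on deviations from the group means 0.92. Among 12935 genes outside the list that averaged 1 CPM or more, 0.804% (104 genes) had an r as high. For Fcgr1 the r with that mean was 0.62 and for F13a1 0.55, values that 26.7% and 31.2% of genes reached. The interferon genes, which cells switch on when type I interferon binds its receptor, had a fitted difference below 0 in 27 of 28 cases, with a median of -0.87, and 0 were called (edgeR adjusted p from 0.860 to 0.981). Ly6a, a Ly6 family gene on that list, was at 215, 77.0, 185 and 160.3 CPM in Estrogen, against 337, 416, 189 and 216 CPM in Vehicle. Estrogen 2 was lowest and Vehicle 2 highest for Ly6a, as for Ly6c2. The list and Ly6c2 share the same libraries and the same contrast, so they are not separate evidence of a difference between the groups.

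**Figure D3:**
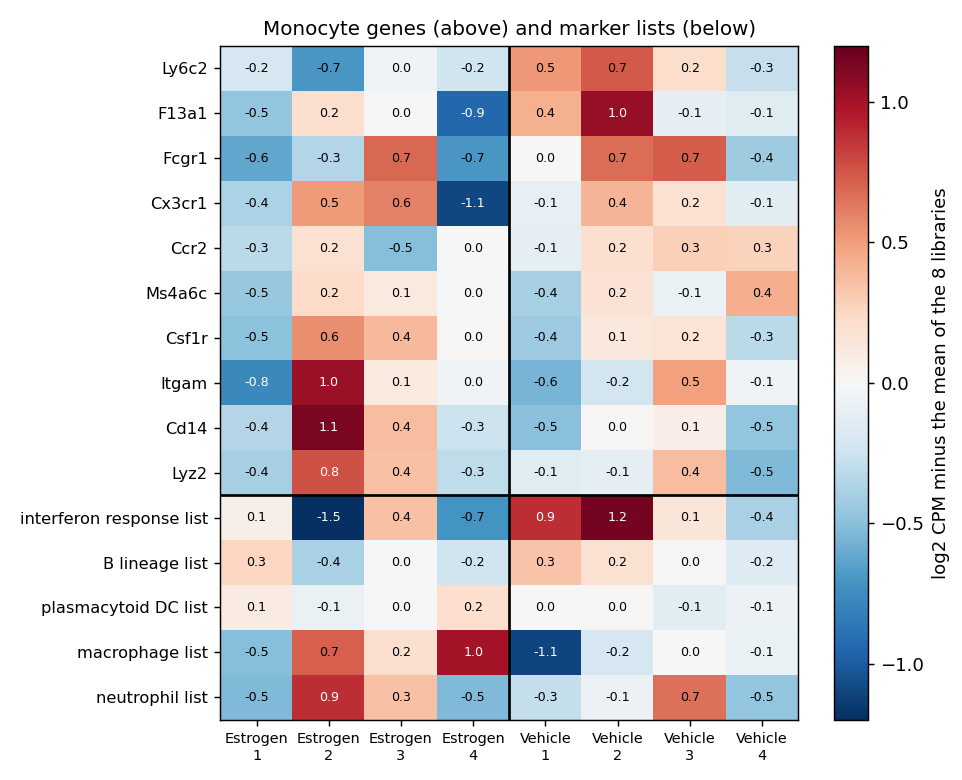
Log2 CPM of each gene (upper 10 rows) and mean log2 CPM of 5 marker lists (lower rows) in the 4 Estrogen libraries on the left and the 4 Vehicle libraries on the right, as the deviation from the mean of the 8 libraries, with the colour scale ending at -1.2 and 1.2. The row of Ly6c2 follows the interferon list, with Estrogen 2 lowest and Vehicle 2 highest, and the row of Lyz2 follows the neutrophil list, with Estrogen 2 highest.

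**Figure D4:**
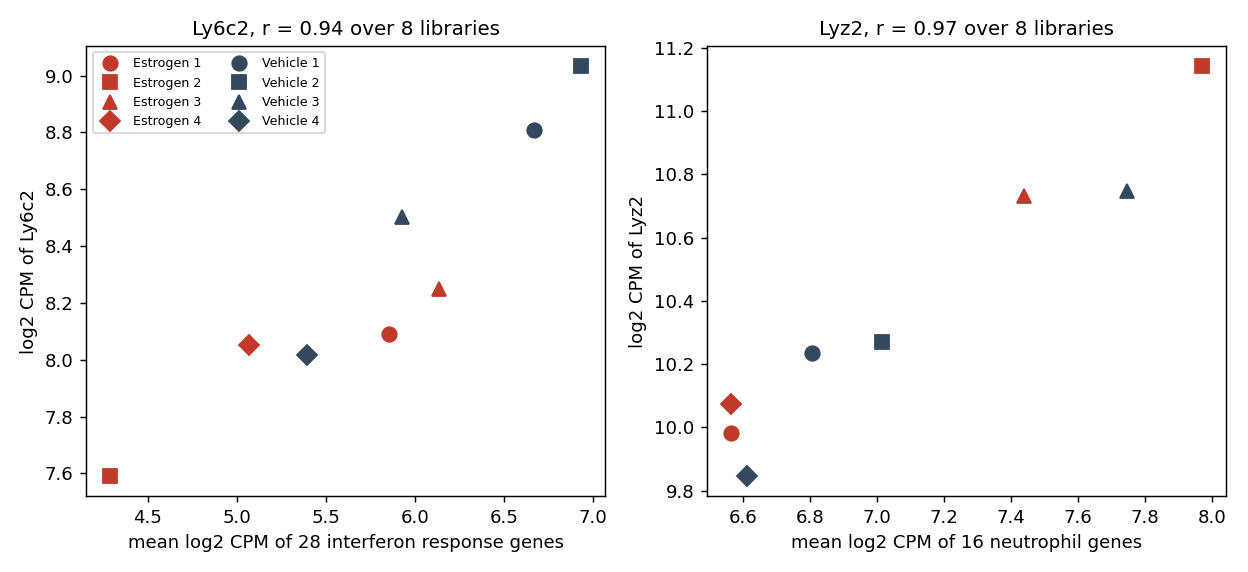
Log2 CPM of Ly6c2 against the mean log2 CPM of 28 interferon response genes (left) and of Lyz2 against the mean of 16 neutrophil genes (right), 1 point per library, Estrogen in red and Vehicle in dark blue. The points lie near a line in both panels, with r = 0.94 and r = 0.97.

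Because Ly6c2 ran with the interferon genes and Fcgr1 is a known interferon target, the 250 bases before their annotated starts are shown (RefSeq, GRCm38.p6, written in the direction of transcription). Capitals mark a match to one of 3 motifs searched on both strands, GAAA NN GAAA for the interferon-stimulated response element (ISRE), TTCNNNGAA for the interferon-gamma-activated site (GAS) and GAGGAAGT for PU.1. The Ly6c2 window is chr15:75111972-75112221, minus strand, and the Fcgr1 window is chr3:96293970-96294219, minus strand.
Ly6c2 promoter: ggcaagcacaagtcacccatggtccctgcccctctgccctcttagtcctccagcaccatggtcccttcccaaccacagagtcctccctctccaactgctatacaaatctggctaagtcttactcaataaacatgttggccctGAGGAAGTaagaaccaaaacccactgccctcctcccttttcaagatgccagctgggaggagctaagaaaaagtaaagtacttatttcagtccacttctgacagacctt
Fcgr1 promoter: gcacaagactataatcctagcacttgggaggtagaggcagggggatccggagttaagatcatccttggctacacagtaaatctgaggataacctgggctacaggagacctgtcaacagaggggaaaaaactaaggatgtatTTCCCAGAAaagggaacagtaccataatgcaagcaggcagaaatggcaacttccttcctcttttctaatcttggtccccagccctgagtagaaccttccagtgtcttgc
The Ly6c2 window held 1 PU.1 match (chromosome 15, 75112072 to 75112079) and 0 matches to the ISRE or GAS letters. The Fcgr1 window held 1 GAS match (chromosome 3, 96294070 to 96294078) and 0 of the others. The windows of Ccr2, Cx3cr1, F13a1, Lyz2, Ms4a6c and Itgam, searched in the same way, held 0 matches to any of the 3. Among 27025 RefSeq promoters of that length, 3.04% held the ISRE letters, 7.18% the GAS letters and 2.44% the PU.1 letters. Of 20 promoters of the interferon list, 11 held the ISRE letters, 5 the GAS letters and 1 the PU.1 letters. A match is a description of the sequence and not a site, and its absence says only that these letters are not in this window.

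The genes whose profile over the 8 libraries was most like that of Ly6c2, among 12953 genes that averaged 1 CPM or more, were Gm12185 (Pearson's r = 0.98), Adgre4 (0.97), Thg1l (0.96), Ms4a6b (0.96) and Sp110 (0.96). Adgre4 is a surface receptor gene of monocytes and Ms4a6b belongs to the MS4A family. Adgre4 was at 0.339 to 0.871 CPM in Estrogen and 0.480 to 3.02 CPM in Vehicle, and Ms4a6b at 8.95 to 15.8 CPM in Estrogen and 11.7 to 32.2 CPM in Vehicle. For Csf1r the nearest were Pla2g7 (0.98), the lipoprotein-associated phospholipase of macrophages, Stra6l (0.97), Rinl (0.96), Fam20c (0.96), a secretory pathway kinase, and Cyp11a1 (0.96). With 8 libraries and this many genes, such values are a description of likeness.

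Beyond the 10 genes, 19 of 20 other genes of classical monocytes were tested, 8 with a fitted difference above 0 and 11 below, with a median of -0.02 and 0 called. Lgals3, galectin-3, was at 254 to 552 CPM in Estrogen and 192 to 335 CPM in Vehicle (0.64 ± 0.26), and Mpeg1, perforin-2, at 1420 to 1922 CPM in Estrogen and 1075 to 1522 CPM in Vehicle (0.37 ± 0.16). Vcan, the proteoglycan versican, went the other way (-1.50 ± 0.58), at 0.374 to 0.824 CPM in Estrogen and 0.366 to 3.12 CPM in Vehicle, as did Ms4a6b (-0.73 ± 0.31). The groups overlapped for all 4, and each had an edgeR adjusted p of 0.860. Chil3 and Ctss, abundant genes of this list, differed by 0.36 ± 0.40 and -0.13 ± 0.16.

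Of 15 genes of patrolling monocytes, 13 were tested, 8 with a fitted difference above 0 and 5 below, with a median of 0.25 and 0 called. Fabp4, a fatty acid-binding protein (0.88 ± 0.29), the scavenger receptor gene Cd36 (0.82 ± 0.28) and Treml4 (1.23 ± 0.55) had higher means in Estrogen. Lower means were seen for Adgre4 (-1.18 ± 0.54) and for Pou2f2 (-0.20 ± 0.10), the gene of highest mean CPM in the list. Cd36 was at 72.4, 204, 113 and 171 CPM in Estrogen, against 70.8, 74.5, 100.2 and 70.9 CPM in Vehicle. Estrogen 1 lay inside the Vehicle range and the other 3 Estrogen libraries above it (edgeR adjusted p = 0.860).

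Among 14 transcription factors of the lineage, 7 had a fitted difference above 0 and 7 below, and 0 were called. Spi1, the gene of PU.1, was at 140 to 216 CPM in Estrogen and 149 to 244 CPM in Vehicle (-0.10 ± 0.17), and Irf8 at 1269 to 1676 CPM in Estrogen and 1226 to 1399 CPM in Vehicle (0.17 ± 0.12). Both factors are also used by B cells. Among 18 tested ligands, adaptors and partners of the 10 genes, 12 had a fitted difference above 0 and 6 below, with a median of 0.11 and 0 called. Tyrobp, the adaptor DAP12 (0.07 ± 0.14), and Syk, the kinase it recruits (-0.10 ± 0.14), were among the most abundant.

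Markers of other cells were read beside the monocyte genes. Of 16 macrophage markers, 15 had a fitted difference above 0 and 1 below, with a median of 0.75 and 0 called, and the list summed to 796 to 2018 CPM in Estrogen and 599 to 1335 CPM in Vehicle. C1qa, a subunit of complement C1q, was at 19.2, 33.4, 28.8 and 53.5 CPM in Estrogen and 9.54, 21.8, 22.9 and 19.99 CPM in Vehicle, a difference of 0.86 ± 0.34. Hmox1, heme oxygenase 1 (1.202 ± 0.49), and Cd68 (0.48 ± 0.18) pointed the same way, and the edgeR adjusted p was 0.860 for each. Timd4, a marker of resident macrophages, had as few as 2 reads in a library. The difference of the macrophage list from the 10 genes was not tested, and r between its mean and the 10 genes ranged from -0.62 (Ly6c2) to 0.68 (Csf1r), none of which passed adjustment.

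In the other lists edgeR called 0 genes and the DESeq2 Wald test called 1, Cd8b1. Fitted differences were above 0 in 9 of 14 plasmacytoid dendritic cell genes (median 0.27), where Siglech stood at 762 to 1402 CPM in Estrogen and 523 to 933 CPM in Vehicle, and in 7 of 9 conventional dendritic cell genes (median 0.10). They were above 0 in 2 of 15 B lineage genes (median -0.23), in 2 of 13 T and NK cell genes (-0.59), in 6 of 7 plasma cell genes (0.07), in 5 of 6 erythroid genes (0.24) and in 5 of 9 basophil, eosinophil and mast cell genes (0.13). Cd8b1, from the T and NK cell list, had no overlap between groups, at 5.87 to 8.30 CPM in Estrogen and 13.3 to 15.7 CPM in Vehicle, with a log2 difference of -1.03 ± 0.14 (edgeR adjusted p = 0.452, DESeq2 adjusted p = 3.55e-09). Thy1 of the same list (-0.95 ± 0.28) and Prdm1 of the plasma cell list (0.47 ± 0.18) had no overlap either, which was so for 1.67% of all genes tested. The edgeR adjusted p was 0.860 for both. The part of these cell types in the counts of the 10 genes was not tested.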

How the data were processed

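RNA of 8 libraries was extracted with Trizol and prepared with a TruSeq kit. The deposited values are raw counts of reads for each Ensembl gene, made by the authors and not normalized. The submitters' notes name CASAVA, Bowtie 0.12.2 and mm10. For the read counter, its annotation, the strand setting and reads with several matches, the method is not given in the sources used here. That Bowtie version aligns no read across an exon junction, and shared sequence makes Ly6c2, Lyz2, Csf1r, Itgam and Ms4a6c less certain.

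Columns were mapped to samples by their description and groups by the treatment label. Separate mice or cultures are not stated, so a p-value measures only how far these libraries spread, which may be technical. Symbols and coordinates come from GENCODE M21, which matched 46488 of 46983 identifiers. Promoters come from RefSeq (GRCm38.p6).

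Genes were kept by filterByExpr (15175 genes, 99.9% of reads), scaled by TMM and fitted with edgeR 4.0.16 in R 4.3.3 (glmQLFit, robust, biological coefficient of variation 22.7%). Estrogen was compared with Vehicle by the two-sided quasi-likelihood F-test, Benjamini-Hochberg adjusted over all genes tested, with a threshold of 0.05. Correlations used log2 CPM with a prior count of 2 and exact two-sided permutation tests over the 8 libraries. Other settings were DESeq2 1.42.0 size factors or Wald test, library totals, no filter or 1 CPM in 4 libraries, limma-voom (limma 3.58.1), the replicate number as a block, reads of Ly6c1 and Lyz1 added to their neighbours, and each library left out. Scripts were tested on simulated data. The 10 genes and all lists were chosen with earlier results of these data known. The text names the 10 genes, Ly6c1, Lyz1, direct partners, from each list genes of smallest p or highest CPM, and the 5 genes most like Ly6c2 and Csf1r. Hmgxb3, BE692007, Gm49368, Timd4 and Tgm2 were named after their values were seen.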

Additional observations from a re-analysis of the deposited data

Results flagged for a closer look

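Fcgr1 in Estrogen 3, at 15.2 CPM, lay far from the other 3 Estrogen libraries, which held 5.80 to 7.39 CPM. Its gap to the nearest library was 0.83 of the range of the group, just above Dixon's critical value for 4 samples. It was the only one of 20 groups examined (10 genes in Estrogen and in Vehicle) that passed, and chance passes about 1 in 20. Without Estrogen 3 the log2 difference of Fcgr1 was -0.87, and the cause was not tested.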

How the results depend on the processing

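The number of monocyte genes called was 0 in all 15 alternatives. The median log2 difference of the 10 genes was -0.19 to 0.07 when 1 library was left out and -0.11 to -0.01 under the other settings. The number of genes called over the whole table was 1 under the DESeq2 Wald test (Cd8b1, log2 difference -1.03) and 1 with the replicate block (Tgm2, 1.10), and 0 whenever 1 library was left out. The number of the 10 genes without overlap was 0 to 1 over the left-out libraries, with 1 (Ly6c2) without Vehicle 4.

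Ly6c2, Ccr2, F13a1 and Fcgr1 stayed below 0 and Csf1r and Cd14 above 0 in every alternative. Ly6c2 ranged from -0.78 to -0.45, with adjusted p from 0.354 to 1.00, and without Vehicle 2 none of the 10 genes had an unadjusted p under 0.05. Cx3cr1 was 0.0141 with library totals and -0.27 to 0.21 with 1 library left out, Ms4a6c -0.18 to 0.0772, Lyz2 -0.0051 to 0.45 and Itgam -0.14 to 0.51. With library totals the median of all genes was 0.05. The cause of these shifts was not tested.

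Estrogen and Vehicle share the replicate numbers 1 to 4. Deviations of same-numbered libraries from their group means correlated at 0.79, -0.19, 0.07 and 0.63 across genes. The values for numbers 1 and 4 were the highest between any Estrogen and any Vehicle library. Estrogen 2, however, correlated best with Vehicle 4 (0.46) and Estrogen 3 with Vehicle 1 (0.24). The likeness was uneven and the labels name no pairs, so the numbers were not taken to pair the libraries. Whether some of them mark shared mice or cultures was not tested. Estrogen 3 also held 26131 reads of Xist, against 85 in Vehicle 3. With the replicate block, 0 of the 10 genes and 1 gene of the whole table were called, and the median of the 10 genes was -0.11. An unadjusted p under 0.05 was reached by 2175 of the 15175 genes tested, against 535 without the block. Among the 10 genes these were 4, Ccr2 (95% interval -0.61 to -0.03), Csf1r (0.03 to 0.44), F13a1 (-1.02 to -0.20) and Fcgr1 (-0.89 to -0.09). Ly6c2, at -0.59 (95% interval -1.22 to 0.04), was not among them.

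The lowest of the 10 genes had 53 reads in a library, against a floor of 3. With 4 libraries per group, the interval of Cx3cr1 includes a log2 difference of -0.84 and of 0.76. Shared sequence and the unknown strand setting leave the counts of Ms4a6c, Itgam and Csf1r uncertain.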
